A study of Mus musculus with 5 samples.

Results

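The mitochondrial respiratory chain genes were examined in sciatic nerves of newborn mice that lack the transcription factor Ebf2. They were taken by symbol as the subunits, the carrier cytochrome c and the assembly factors whose names start with Nduf, Sdha to Sdhd, Uqcr, Cox4 to Cox7 (Cox7a1 aside), Cox10 to Cox19, Atp5, Cyc1, Cycs or Cyct. The deposited table held 39 such genes among 10361 probe sets, 1 probe set for each gene, of 107 protein-coding genes that match these names in RefSeq. The other 68 were not analysed here, and another 2 probe sets that list a matching gene beside a second symbol were left aside. The design compared 2 pools of Ebf2-/- nerves (KO pools 2 and 4) with 3 pools of Ebf2+/+ nerves (WT pools 1, 9 and 11). All were taken at postnatal day 2 on a C57Bl6N background from crosses of heterozygous parents, with 12 nerves and 1 array for each pool. The labels name no tissue-restricted allele, and they do not say how many animals or litters gave the nerves of a pool. Each p-value therefore sets the KO minus WT difference only against the spread of these arrays within a genotype. How much of that spread is technical is not known.

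The respiratory chain sits in the inner membrane of mitochondria. Complex I takes electrons from NADH and complex II from succinate, complex III passes them to cytochrome c, and complex IV hands them to oxygen. The protons pumped along the way drive complex V, the ATP synthase. A few subunits, chiefly of complex IV, have separate genes for heart and skeletal muscle, and assembly factors help to build each complex without staying in it. In peripheral nerve, both the axons and the Schwann cells around them hold mitochondria, and in mice the loss of respiration in Schwann cells is known to damage axons. Ebf2 itself is best known for its part in the identity of brown fat, a tissue rich in respiratory chain proteins.

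The outcome was a small, shared offset with no gene called. Of the 39 genes, 36 lay lower in the KO pools and 3 higher, beside 50.2% lower among all probe sets, and the median log2 fold change was -0.18 against a median near 0 for the whole table. A log2 fold change here is the KO mean less the WT mean of the RMA log2 values, with its moderated standard error (SE). None of the 39 genes passed an adjusted p below 0.05 in limma, where 0.676% of all probe sets did, and the lowest adjusted p among them was 0.214. At unadjusted p below 0.05, 4 genes lay lower and 0 higher (Sdhaf1, Sdhaf3, Atp5l and Ndufaf3), beside 7.17% lower and 7.14% higher over the table. Both KO pools lay below all WT pools in 17 of the 39 genes, where 13.3% of all probe sets did so, and in 0 genes did both lie above them. With 3 against 2 arrays the SE was 0.17 to 0.26 on the log2 scale, so the median offset was about as large as the error of a single gene. The offset also differed between groups of genes. Against WT pool 1 alone, the subunits and cytochrome c had a median of -0.03, with 18 lower and 13 higher. The 8 assembly factors had a median of -0.25, with all 8 lower.

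Some measured facts bear on these counts. Every probe set of the table had at least 0.175 log2 units between its lowest and its fourth-ranked array, with 0.177 as the smallest such gap among the 39 genes. The labels do not describe such a filter. Genes that varied less between pools are thus not analysed here, and the counts stand for the 39 genes only. The array medians were 9.11 and 8.93 in KO pools 2 and 4, and 9.11, 9.09 and 9.04 in WT pools 1, 9 and 11. Ebf2 read 9.25 and 8.74 in KO pools 2 and 4, against 11.55, 11.14 and 11.40 in WT pools 1, 9 and 11, so the arrays stood on the side of their labels. Of 12 Schwann cell markers, 6 were measured (mean 11.70 and 11.35 in KO pools 2 and 4, against 11.88, 11.98 and 11.93 in WT pools 1, 9 and 11), with Mag called lower in KO (log2 fold change -0.99, SE 0.19, limma adjusted p = 0.017). The whole table had 70 calls in this fit but 0 without moderation of the variance, so the call of Mag depended on the fit. RMA gives no zero values, so no marker could be listed at 0.

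Stretches before the start sites are shown for 4 genes, chosen for the largest offset downward (Sdhaf3), the largest downward offset among subunits (Atp5l), the electron carrier (Cycs) and the largest offset upward (Atp5g2). Each holds the 250 bases before the RefSeq start in GRCm38.p6, on the strand of the gene. Capitals mark the letters of 4 motifs searched on both strands, CCGGAAG for ETS factors such as GABPA, TGCGCA for the core of NRF1 sites, AAGGTCA for ERR receptors and, for early B cell factors (the family of Ebf2), TCCC and GGGA with any 2 bases between them.
Sdhaf3 (chr6:6955768-6956017, plus strand): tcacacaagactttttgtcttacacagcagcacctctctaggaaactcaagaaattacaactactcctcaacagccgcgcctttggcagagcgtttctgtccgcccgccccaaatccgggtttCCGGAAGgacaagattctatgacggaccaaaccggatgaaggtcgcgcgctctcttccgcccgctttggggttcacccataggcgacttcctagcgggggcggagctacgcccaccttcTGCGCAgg
Atp5l (chr9:44920743-44920992, minus strand): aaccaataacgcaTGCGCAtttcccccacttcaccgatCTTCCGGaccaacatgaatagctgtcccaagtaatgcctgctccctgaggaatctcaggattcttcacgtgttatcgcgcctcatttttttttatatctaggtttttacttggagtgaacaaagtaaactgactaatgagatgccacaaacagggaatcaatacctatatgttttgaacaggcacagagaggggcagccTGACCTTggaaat
Cycs (chr6:50566570-50566819, minus strand): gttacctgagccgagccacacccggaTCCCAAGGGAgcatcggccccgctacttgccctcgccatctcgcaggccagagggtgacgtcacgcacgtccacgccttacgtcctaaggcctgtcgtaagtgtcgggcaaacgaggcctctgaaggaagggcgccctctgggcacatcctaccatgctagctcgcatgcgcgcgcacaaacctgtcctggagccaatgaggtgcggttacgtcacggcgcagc
Atp5g2 (chr15:102671048-102671297, minus strand): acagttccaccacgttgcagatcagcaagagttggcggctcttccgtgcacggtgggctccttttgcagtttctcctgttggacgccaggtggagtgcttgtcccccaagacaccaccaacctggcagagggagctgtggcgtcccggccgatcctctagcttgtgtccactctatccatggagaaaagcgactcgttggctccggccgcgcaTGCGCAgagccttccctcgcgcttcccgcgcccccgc

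Windows of this kind were found for 34 of the 39 genes, with 36 windows in all, since 2 genes had a second start. The ETS letters occurred in 8 of the 36 windows and in 6.91% of all RefSeq windows, and the NRF1 core in 9 of 36 and 6.43%. Ndufa5 counted 2 times among the 9 NRF1 windows, with 1 match in each of its windows. ERR letters occurred in 3 of 36 and 4.08%. The letters for early B cell factors occurred in 1 of the 36 windows, that of Cycs, as TCCCAAGGGA from 224 to 215 bases before the start, and in 0.779% of all windows. Atp5l held the NRF1 core from 237 to 232, the ETS letters from 212 to 206 and the ERR letters from 13 to 7 bases before its start, the last 2 on the opposite strand. Sdhaf3 held the ETS letters from 127 to 121 and the NRF1 core from 8 to 3, and Atp5g2 the NRF1 core from 37 to 32 bases before the start. No motif overlapped another in these 4 windows. A match of letters is a description of the sequence and does not show a bound site.

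**Figure D1:**
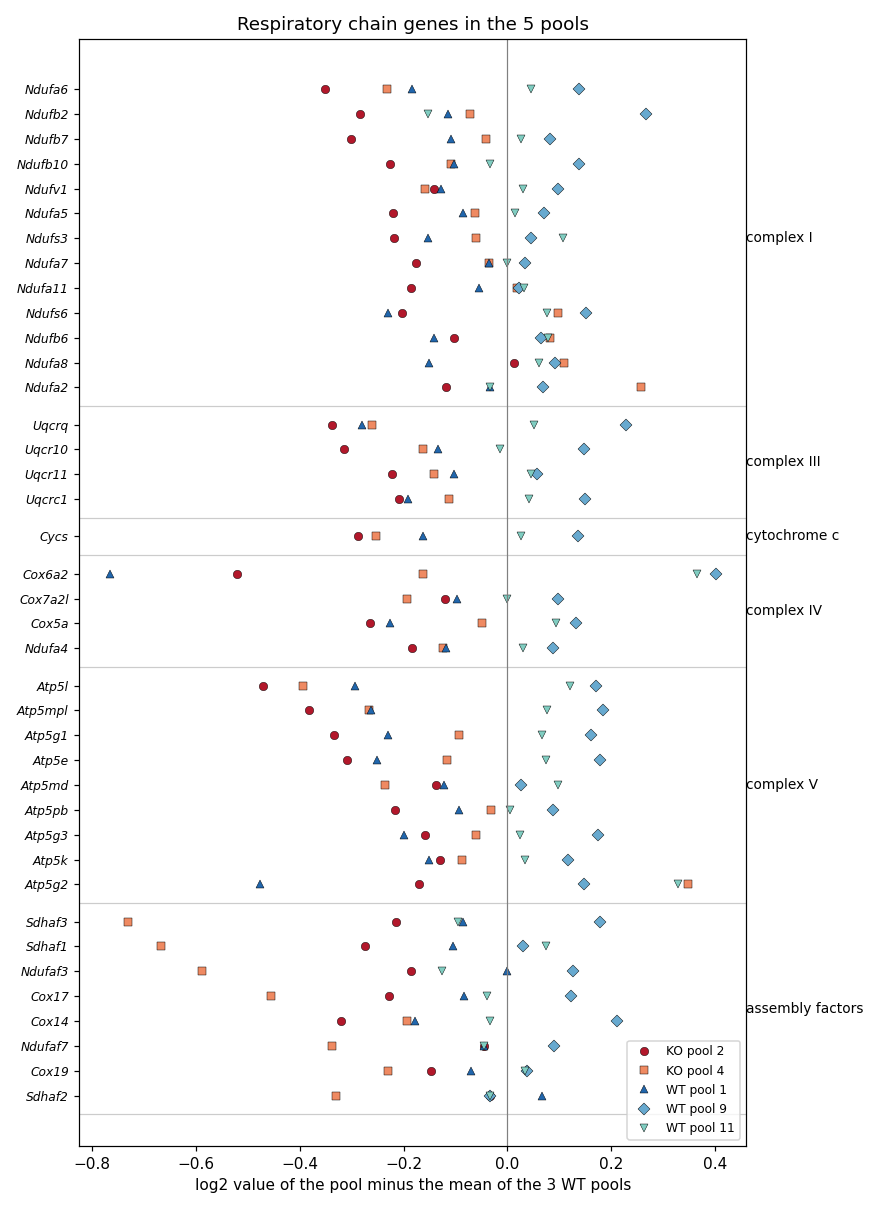
Each row is a gene and each point a pool, placed by its log2 value minus the mean of the 3 WT pools on the horizontal axis. Among subunits, WT pools 9 and 11 mostly lie to the right and KO pool 2 with WT pool 1 to the left, while among assembly factors KO pool 4 lies farthest left in 7 of 8 rows.

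Complex I had the largest number of genes measured, 13 of 39 protein-coding genes, though not the largest share. Of the 13, 11 lay lower and 2 higher in KO, with a median log2 fold change of -0.14, and 0 passed the test. Without KO pool 2 that median was -0.04, with 8 of 13 lower, without WT pool 9 it was -0.09, and with each array centred on its median -0.08, with 9 of 13 lower. The 13 genes averaged 10.29 and 10.47 in KO pools 2 and 4, against 10.37, 10.58 and 10.50 in WT pools 1, 9 and 11. KO pool 4 thus lay between WT pool 1 and WT pool 11, and only KO pool 2 lay below all WT pools.

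Ndufa6, an accessory subunit of the LYR family, had the lowest fold change of complex I. It read 10.69 and 10.81 in KO pools 2 and 4, against 10.86, 11.18 and 11.08 in WT pools 1, 9 and 11. Both KO pools were below every WT pool, by as little as 0.05 for KO pool 4 against WT pool 1 (log2 fold change -0.29, SE 0.17, limma adjusted p = 0.449). Ndufv1, the core subunit that binds NADH and flavin, read 10.96 and 10.94 in KO pools 2 and 4, against 10.98, 11.20 and 11.13 in WT pools 1, 9 and 11. Ndufs3, another core subunit, read 11.64 and 11.80 in KO pools 2 and 4, against 11.71, 11.91 and 11.97 in WT pools 1, 9 and 11. Its groups overlapped, with KO pool 4 above WT pool 1. Ndufb10, an accessory subunit of the membrane arm, read 9.01 and 9.126 in KO pools 2 and 4, against 9.131, 9.37 and 9.20 in WT pools 1, 9 and 11. Its KO pools also lay below all WT pools, but KO pool 4 was nearly level with WT pool 1 (log2 fold change -0.17, SE 0.17).

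The genes at the other end of complex I had log2 fold changes between -0.11 and 0.07, with errors that leave room for an offset of the size of the median. Ndufb6, an accessory subunit of the membrane arm, read 12.04 and 12.23 in KO pools 2 and 4, against 12.00, 12.21 and 12.22 in WT pools 1, 9 and 11 (log2 fold change -0.01, SE 0.17, 95% interval -0.36 to 0.34). Ndufa8, a subunit of the intermembrane space side, read 10.86 and 10.95 in KO pools 2 and 4, against 10.69, 10.94 and 10.90 in WT pools 1, 9 and 11. In both genes WT pool 1 was the lowest array. Ndufa2, an accessory subunit beside the NADH-binding module, read 10.51 and 10.89 in KO pools 2 and 4, against 10.60, 10.70 and 10.60 in WT pools 1, 9 and 11, so that the KO pools lay on either side of the WT pools. Ndufs6, Ndufa11 and Ndufa7, all accessory subunits, had log2 fold changes of -0.05, -0.08 and -0.11 and groups that overlapped or touched. The other 3 genes, Ndufb2, Ndufb7 and Ndufa5, lay between -0.18 and -0.14.

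Complex II had no subunit among the 39 genes, as Sdha, Sdhb, Sdhc and Sdhd were not analysed here. Its assembly factors Sdhaf1, Sdhaf2 and Sdhaf3 are described with the other assembly factors.

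All 4 measured genes of complex III lay lower in KO, with a median log2 fold change of -0.21. Uqcrq, a small subunit that contacts the cytochrome b part, read 11.24 and 11.32 in KO pools 2 and 4, against 11.30, 11.81 and 11.63 in WT pools 1, 9 and 11 (log2 fold change -0.30, SE 0.18, limma adjusted p = 0.463). KO pool 4 and WT pool 1 differed by 0.02 in that gene, and WT pools 9 and 11 stood above the rest. Uqcr10, another small subunit, read 10.34 and 10.49 in KO pools 2 and 4, against 10.52, 10.80 and 10.64 in WT pools 1, 9 and 11. For Uqcr11 the values were 11.44 and 11.52 in KO pools 2 and 4, against 11.56, 11.72 and 11.70 in WT pools 1, 9 and 11. Both of these genes had KO pools below every WT pool, by less than 0.1 for the nearest arrays. Uqcrc1, a core protein of the complex, overlapped between the groups (log2 fold change -0.16, SE 0.17).

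Cycs, the gene of the somatic cytochrome c that carries electrons from complex III to complex IV, followed the same order. It read 12.57 and 12.61 in KO pools 2 and 4, against 12.70, 13.00 and 12.89 in WT pools 1, 9 and 11. The KO pools differed by 0.035 and lay below every WT pool (log2 fold change -0.27, SE 0.17, limma adjusted p = 0.481).

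Complex V had 9 of 17 genes measured, 8 of them lower in KO, with a median of -0.19, or -0.09 without KO pool 2 and -0.12 without WT pool 9. Atp5l, which encodes subunit g of the membrane part, had the largest offset of any subunit. It read 10.31 and 10.39 in KO pools 2 and 4, against 10.49, 10.95 and 10.90 in WT pools 1, 9 and 11. Both KO pools were below every WT pool (log2 fold change -0.43, SE 0.18, limma adjusted p = 0.27), and the offset against WT pool 1 alone was -0.14. Atp5mpl, for a small proteolipid of the same membrane part, read 11.18 and 11.29 in KO pools 2 and 4, against 11.30, 11.75 and 11.64 in WT pools 1, 9 and 11, with -0.06 against WT pool 1 alone. Atp5md, also known as DAPIT, a protein linked to pairing of ATP synthase molecules, read 12.91 and 12.81 in KO pools 2 and 4, against 12.92, 13.07 and 13.14 in WT pools 1, 9 and 11. These were the 3 genes of complex V, of 9 measured, in which both KO pools lay below all WT pools, beside 13.3% of all probe sets.

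Subunit c, the ring of the ATP synthase, is encoded by 3 genes whose mature proteins are the same, and all were measured. Atp5g1 read 12.14 and 12.38 in KO pools 2 and 4, against 12.25, 12.64 and 12.54 in WT pools 1, 9 and 11. Atp5g3 read 12.17 and 12.27 in KO pools 2 and 4, against 12.13, 12.50 and 12.36 in WT pools 1, 9 and 11. Atp5g2 read 9.95 and 10.47 in KO pools 2 and 4, against 9.64, 10.27 and 10.45 in WT pools 1, 9 and 11. Atp5g2 varied over 0.82 log2 units with fully overlapping groups, and its log2 fold change of 0.09 (SE 0.22, 95% interval -0.36 to 0.54) was the highest of the 39 genes. It was 0.56 against WT pool 1 alone, and -0.17 without KO pool 4. Atp5k (subunit e), Atp5pb (subunit b of the stalk) and Atp5e (subunit epsilon) had log2 fold changes of -0.11, -0.12 and -0.21 with overlapping groups.

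**Figure D2:**
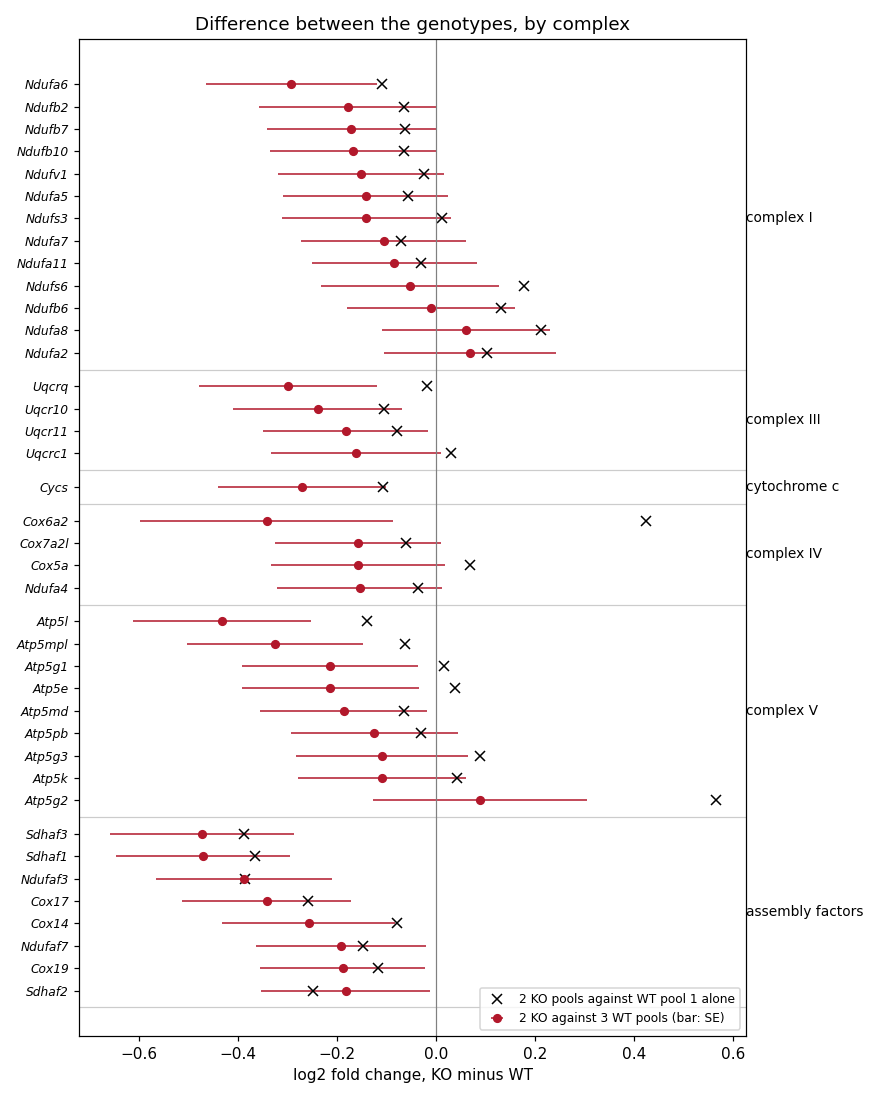
The log2 fold change of each gene (circles, with the SE as bars) is set beside the same difference against WT pool 1 alone (crosses), with genes in rows by complex. Crosses of the subunits and cytochrome c lie on both sides of 0, up to 0.56 for Atp5g2 and 0.42 for Cox6a2, at a median of -0.03, while those of the 8 assembly factors all lie below 0, at a median of -0.25.

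Complex IV had 4 of 16 genes measured, all lower in KO, with a median of -0.16, or -0.24 without WT pool 1 and -0.10 with each array centred on its median. Its muscle isoform gave the widest spread of any of the 39 genes. Cox6a2, the form of subunit 6a found in heart and skeletal muscle, read 8.97 and 9.33 in KO pools 2 and 4, against 8.72, 9.89 and 9.85 in WT pools 1, 9 and 11. The KO pools lay between WT pool 1, which was lowest, and WT pools 9 and 11. The log2 fold change was -0.34 (SE 0.26, limma adjusted p = 0.559) over all pools and 0.42 against WT pool 1 alone, so its sign depended on the WT pools. Cox6a1, its broadly expressed counterpart, was not analysed here.

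Outside the 39 genes, 2 other muscle isoforms of complex IV also had WT pools 9 and 11 above both KO pools. Cox8b, found in heart, skeletal muscle and brown fat, read 8.85 and 9.36 in KO pools 2 and 4, against 8.73, 10.71 and 10.45 in WT pools 1, 9 and 11. Cox7a1 read 8.76 and 9.16 in KO pools 2 and 4, against 8.78, 9.73 and 9.46 in WT pools 1, 9 and 11. WT pool 1 was the lowest array for Cox8b and lay between the KO pools for Cox7a1. Neither passed the test (limma adjusted p = 0.269 for Cox8b and 0.470 for Cox7a1), and against WT pool 1 alone their log2 fold changes were 0.37 and 0.18. Cox8a was not analysed here.

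The broadly expressed genes of complex IV varied over a narrower range. Cox5a, which encodes a subunit on the matrix side, read 10.36 and 10.57 in KO pools 2 and 4, against 10.40, 10.75 and 10.71 in WT pools 1, 9 and 11. Ndufa4, named after complex I but now placed in complex IV, read 11.11 and 11.17 in KO pools 2 and 4, against 11.18, 11.38 and 11.33 in WT pools 1, 9 and 11. Cox7a2l is a relative of subunit 7a that has been linked to supercomplexes of complexes III and IV. It read 10.46 and 10.39 in KO pools 2 and 4, against 10.49, 10.68 and 10.58 in WT pools 1, 9 and 11. In Ndufa4 and Cox7a2l both KO pools lay below every WT pool, the nearest arrays being 0.006 and 0.023 apart. Their log2 fold changes were -0.15 and -0.16, each with an SE of 0.17.

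**Figure D3:**
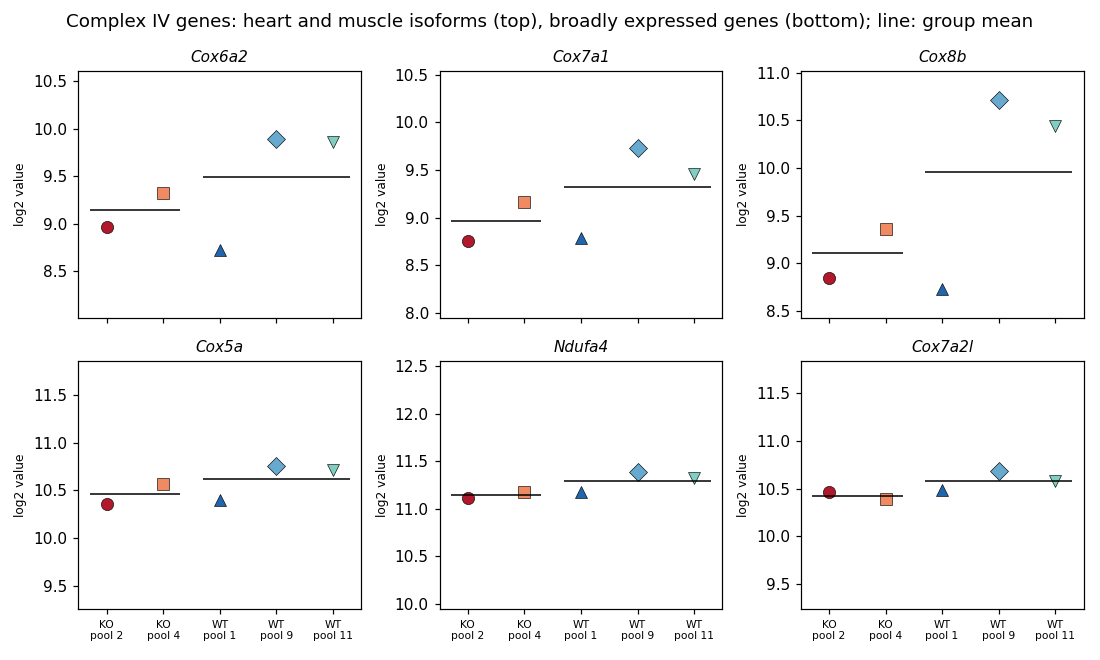
Log2 values (vertical axis, the same span in each panel) of 3 muscle isoforms in the upper row and 3 broadly expressed complex IV genes in the lower row are plotted for each pool, with lines at the group means. In the upper row WT pools 9 and 11 stand above the other 3 pools by more than in the lower row.

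The WT pools themselves differed in these genes. The mean of WT pools 9 and 11 exceeded WT pool 1 in 38 of the 39 genes and in 46.7% of all probe sets. The excess had a median of 0.17 in complex I, 0.24 in complex III, 0.26 in complex IV and 0.34 in complex V, and was 1.15 for Cox6a2, 1.84 for Cox8b and 0.81 for Cox7a1. WT pool 9 held the highest value of the 5 arrays in 30 of the 39 genes, against 26.8% of all probe sets.

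Markers of other tissues differed between the same pools. All 30 skeletal muscle markers were measured, and their mean was 10.09 and 10.31 in KO pools 2 and 4, against 9.62, 11.01 and 10.86 in WT pools 1, 9 and 11. WT pools 9 and 11 together exceeded WT pool 1 in 29 of the 30, by a median of 1.54. The 10 keratinocyte markers averaged 7.47 and 7.75 in KO pools 2 and 4, against 7.40, 9.66 and 8.92 in WT pools 1, 9 and 11. The 7 measured fat cell markers averaged 7.44 and 7.56 in KO pools 2 and 4, against 7.43, 8.02 and 7.78 in WT pools 1, 9 and 11. The 4 measured brown fat markers averaged 6.84 and 6.998 in KO pools 2 and 4, against 6.88, 7.16 and 7.10 in WT pools 1, 9 and 11, and Ucp1, which defines brown fat, was not analysed here. The extremes by log2 fold change were Tnnc2 at -0.82 and Myh7 at 0.43 in muscle, Krt1 at -2.42 and Trp63 at -0.22 in keratinocytes, Adipoq at -0.41 and Cidec at -0.12 in fat cells, and Pank1 at -0.25 and Zic1 at -0.02 in brown fat. None of these markers was called, and their part in the respiratory chain values was not tested. In pooled tissue, fewer cells of a type and less RNA per cell cannot be told apart.

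Set against WT pool 1 alone, 26 of the 39 genes were lower and 13 higher in KO, with a median of -0.06, beside 49.2% lower among all probe sets. For the 31 subunits and cytochrome c, 18 were lower and 13 higher, with a median of -0.03. Their medians were -0.03 in complex I, -0.05 in complex III, 0.02 in complex IV and 0.02 in complex V. In the same comparison 0 of the 30 skeletal muscle markers were lower in KO (median 0.56), and 0 of the 10 keratinocyte markers (median 0.20). WT pool 1 is thus not a reference of like tissue content, and the part of these markers in the medians was not tested. In 18 of the 39 genes both KO pools lay below WT pool 1, in 7 both lay above it, and in 14 WT pool 1 lay between them, where 29.8% of all probe sets had both KO pools below it. With the mean of the skeletal muscle markers as a covariate over all 5 pools, 34 of the 39 genes had a fold change below 0. Their median was -0.13, beside 0.02 for all probe sets. That fit had 2 residual degrees of freedom, and its covariate held no keratinocyte or fat cell markers.

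**Figure D4:**
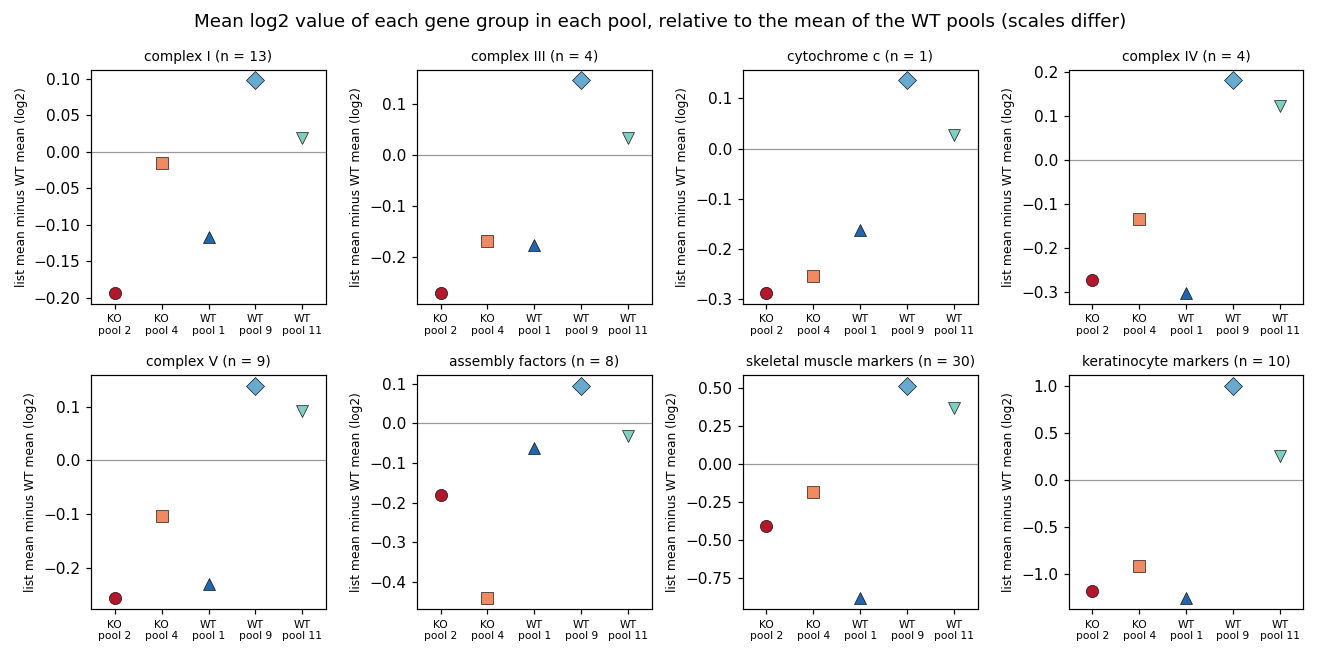
Each panel gives the mean log2 value of a gene group in each pool minus the mean of the 3 WT pools, with a scale of its own. WT pools 9 and 11 are the highest pools in complexes I, III, IV and V and in the muscle and keratinocyte panels, while the assembly factors have KO pool 4 lowest and WT pool 1 close to WT pool 11.

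In the assembly factors the lowest pool was mostly KO pool 4, an order also found in other gene groups. All 8 that were measured lay lower in KO, with a median log2 fold change of -0.30 and 0 called, and all 8 were lower against WT pool 1 alone as well (median -0.25). The group averaged 9.09 and 8.82 in KO pools 2 and 4, against 9.20, 9.36 and 9.23 in WT pools 1, 9 and 11, so both KO means lay below the 3 WT means. In 6 of the 8 genes both KO pools lay below every WT pool, beside 13.3% of all probe sets. KO pool 4 was below KO pool 2 in 7 of the 8 assembly factors (median difference -0.29), whereas it was above KO pool 2 in 28 of the 31 subunits and cytochrome c (median difference 0.14) and in 49.3% of all probe sets. KO pool 4 was the lowest array in 31.8% of all probe sets and KO pool 2 in 13.2%. The 6 measured Schwann cell markers had KO pool 4 below KO pool 2 in 6 of 6 (median difference -0.30), a median log2 fold change of -0.36, and 6 of 6 lower against WT pool 1 alone. In fatty acid oxidation KO pool 4 was below KO pool 2 in 7 of 8 genes, and in coenzyme Q synthesis in 5 of 7. The part of these groups and pools in the assembly factor values was not tested. Which of the 2 KO pools is typical cannot be told from 2 arrays. Without KO pool 4 the median of the assembly factors was -0.20, and without KO pool 2 it was -0.40.

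Sdhaf3 and Sdhaf1, which protect the iron-sulphur subunit of complex II during its assembly, had the largest offsets of the 39 genes. Sdhaf3 read 8.85 and 8.33 in KO pools 2 and 4, against 8.98, 9.24 and 8.97 in WT pools 1, 9 and 11 (log2 fold change -0.47, SE 0.19, limma adjusted p = 0.238), or -0.21 without KO pool 4. Sdhaf1 read 9.81 and 9.41 in KO pools 2 and 4, against 9.98, 10.11 and 10.16 in WT pools 1, 9 and 11 (log2 fold change -0.47, SE 0.18, limma adjusted p = 0.214), or -0.27 without KO pool 4. Every KO array was below every WT array in both genes, with KO pool 4 far below KO pool 2. Sdhaf2, which helps to attach flavin to Sdha, read 10.12 and 9.82 in KO pools 2 and 4, against 10.22, 10.12 and 10.12 in WT pools 1, 9 and 11, and KO pool 2 was level with 2 of the WT pools.

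Ndufaf3, an assembly factor of complex I, read 9.94 and 9.54 in KO pools 2 and 4, against 10.13, 10.26 and 10.003 in WT pools 1, 9 and 11 (log2 fold change -0.39, SE 0.18, limma adjusted p = 0.32), or -0.19 without KO pool 4. Cox17, the copper chaperone of complex IV, read 7.32 and 7.09 in KO pools 2 and 4, against 7.46, 7.67 and 7.51 in WT pools 1, 9 and 11 (log2 fold change -0.34, SE 0.17, limma adjusted p = 0.37). Both genes had KO values below all WT values. Cox19, another protein of copper delivery, and Cox14, which acts early in building complex IV, were also lower in both KO pools than in any WT pool, with log2 fold changes of -0.19 and -0.26. Ndufaf7, a methyltransferase that acts in complex I assembly, had -0.19 with KO pool 2 level with WT pools 1 and 11.

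Other genes of the respiratory chain and of mitochondrial energy metabolism were taken from lists, and 0 of their members were called. Among 22 further subunits and assembly factors, Cox7a1 and Cox8b included, 20 lay lower and 2 higher in KO, with a median of -0.23, from Cox8b at -0.86 (SE 0.36) to Sco1, a copper protein for complex IV, at 0.04. KO pool 4 lay below KO pool 2 in 14 of these 22. Of 9 measured genes of the citric acid cycle and of enzymes that pass pyruvate into it, 7 were lower and 2 higher (median -0.15). They ranged from Ogdh, for the 2-oxoglutarate dehydrogenase, at -0.35 (SE 0.17) to Pcx, for pyruvate carboxylase, at 0.12. All 8 measured genes of fatty acid oxidation were lower (median -0.26), from Etfb, which passes electrons to the chain, at -0.39 (SE 0.18) to Hadha, the alpha subunit of the trifunctional protein, at -0.17. In coenzyme Q synthesis 5 of 7 were lower (median -0.30). Its lowest fold change was that of Coq3, a methyltransferase, which read 8.97 and 7.73 in KO pools 2 and 4, against 9.03, 9.42 and 9.00 in WT pools 1, 9 and 11, with KO pool 4 far below the other arrays (log2 fold change -0.80, SE 0.25, limma adjusted p = 0.136). The highest in that list was Coq6, a hydroxylase, at 0.12. Against WT pool 1 alone, 18 of the 22 further subunits and assembly factors were lower (median -0.13). Of the 9 genes of the citric acid cycle and pyruvate entry, 5 were lower in that comparison (median -0.05). The same comparison had all 8 genes of fatty acid oxidation lower (median -0.18) and 5 of 7 in coenzyme Q synthesis (median -0.25).

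Carriers, glycolysis and regulators were mixed. Of 6 measured genes for exchange and transfer of ATP, 5 were lower (median -0.18), with Ckmt2, the creatine kinase of muscle mitochondria, at -0.40 (SE 0.33) over all pools and 0.71 against WT pool 1 alone, and the ADP/ATP carrier gene Slc25a5 at 0.07. Of 14 glycolysis genes, 9 were lower (median -0.14), from the muscle phosphoglycerate mutase gene Pgam2 at -0.62 (SE 0.30), or 0.38 against WT pool 1 alone, to Pfkl, for liver phosphofructokinase, at 0.32. For Pfkl, KO pool 2 read 9.015, within the WT pools (8.84 to 9.15), and only KO pool 4 stood above them at 9.69. Against WT pool 1 alone, only 2 of the 6 transfer genes (median 0.15) and 3 of the 14 glycolysis genes (median 0.16) were lower. Among 14 regulators of mitochondrial biogenesis, 8 were lower and 6 higher (median -0.12), with 8 lower against WT pool 1 alone (median -0.03). Gabpb1, the partner subunit of the ETS factor GABPA, read 10.27 and 10.43 in KO pools 2 and 4, against 10.02, 9.31 and 9.68 in WT pools 1, 9 and 11, above every WT pool but not called (log2 fold change 0.68, SE 0.19, limma adjusted p = 0.103). It was 0.34 against WT pool 1 alone. Tfb1m, which methylates mitochondrial ribosomal RNA, had the lowest of these fold changes at -0.47 (SE 0.19). Its KO pool 2 read 9.125, level with WT pool 11, and KO pool 4 read 8.53, below the other arrays. Ppargc1a, the coactivator PGC-1alpha, read 9.19 and 8.20 in KO pools 2 and 4, against 9.16, 8.98 and 9.02 in WT pools 1, 9 and 11, so KO pool 4 alone stood apart. Nrf1, Gabpa and Esrra, which act on promoters of respiratory genes, had log2 fold changes of 0.20, 0.13 and -0.14. The protein genes of the mitochondrial genome were not analysed here.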

How the data were processed

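Total RNA of 5 pools of nerves was measured on Affymetrix whole-transcript arrays. The authors deposited log2 expression values, 1 per probe set and pool. The submitters' processing notes name RMA, a method that corrects background, aligns array distributions and combines probes, without a version or settings. A lower bound on the spread of each probe set in the table can raise the common variance that limma estimates. Probe sets were named by the platform annotation, and only those with 1 symbol were used; all 39 symbols matched RefSeq GRCm38.p6. Respiratory genes have many processed pseudogenes, and signal from such copies was not separated.

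Genotypes were compared with limma 3.58.1 in R 4.3.3 (lmFit, eBayes, no covariates, two-sided, Benjamini-Hochberg over 10361 probe sets), with 3 residual and 17.4 prior degrees of freedom. The number of arrays limits the precision. Alternatives were median centring, quantile normalization, filters at the 25th and 50th percentiles of the mean, no moderation, a trended prior, omission of each pool, WT pool 1 as the only WT pool, and the skeletal muscle mean as a covariate. The text names the 8 lowest and 8 highest fold changes among the members, the member with the highest mean in each complex, isoforms with restricted or broad expression, and the extremes of each list; other members are given after their values were seen. Members, lists and motifs were chosen with earlier results of these data known. Promoter sequences are from RefSeq, GRCm38.p6.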

Additional observations from a re-analysis of the deposited data

How the results depend on the processing

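No gene of the 39 was called at adjusted p below 0.05 under any of the 13 alternatives, but the whole table had 0 calls in 4 of them (no moderation, without KO pool 2, without KO pool 4, WT pool 1 alone) and 1 call in 3 (median centring, quantile normalization, without WT pool 9), so these say nothing about stability. The median of all 39 genes stayed below 0 in every alternative, between -0.23 (without WT pool 1) and -0.06 (against WT pool 1 alone). The count of the 39 genes at unadjusted p below 0.05, 4 over all pools beside 1483 of all 10361 probe sets, was 2 with median centring (beside 11.9% of all probe sets), 1 without moderation (4.81%), 2 with the muscle covariate (9.59%) and 0 against WT pool 1 alone (1.23%). It ranged from 0 to 8 when single pools were left out, with 0 without KO pool 4 (3.16%), 6 without KO pool 2 (22.3%), 1 without WT pool 9 (4.14%), 1 without WT pool 11 (8.22%) and 8 without WT pool 1 (15.9%). Against WT pool 1 alone the median was -0.0295 in complex I and 0.016 in complex V, and that of the assembly factors ranged from -0.40 to -0.20 when single pools were left out. Signs turned in 18 of the 189 values of named genes that could turn, since 4 alternatives (both filters, no moderation, the trended prior) leave fold changes as they are. Median centring adds 0.0592 to every fold change. Those that turned against WT pool 1 alone were Cox6a2 (0.42), Ndufs6 (0.18), Ndufb6 (0.13) and Atp5k (0.0415). With median centring Ndufb6 was 0.0488 and Ndufs6 was 0.007, and with the muscle covariate Ndufb6 was 0.0404 and Ndufs6 was 0.0321. When single pools were left out, Atp5g2 ranged from -0.17 to 0.35, Ndufa11 from -0.19 to 0.0177, Ndufa2 from -0.12 to 0.26, Ndufa8 from -0.0155 to 0.11, Ndufb6 from -0.10 to 0.0827 and Ndufs6 from -0.20 to 0.0983. Where a genotype was left with 1 pool, that pool was assumed to vary like the others. The cause of these moves was not tested. No paired analysis was possible because the KO and WT pools share no replicate number.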
